A study of Mus musculus with 8 samples.

Results

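Troponin is the calcium switch of striated muscle, and 8 of the 49315 genes in the deposited tables encode its subunits. They were picked by symbol: Tnnt1, Tnnt2 and Tnnt3 for troponin T, Tnni1, Tnni2 and Tnni3 for troponin I, and Tnnc1 and Tnnc2 for troponin C. All 8 had reads in every library and passed the filter on low counts, which left 19571 genes, though Tnni3 passed only with its 30 month libraries. RNA came from gastrocnemius, the large calf muscle, of C57BL/6 mice aged 3, 12, 24 or 30 months, with 2 libraries per age and 8 in all. The labels name no treatment or engineered allele, and as far as they say the groups differ by age alone. Whether the pair of libraries at an age stems from different mice is not stated, and p-values here measure only the spread between libraries, which may be technical.

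Troponin T ties the complex to tropomyosin on the thin filament, troponin I holds back the actin and myosin reaction, and troponin C binds calcium and releases that hold. Each subunit has separate genes for slow and for fast fibres. Tnnt1 and Tnni1 serve slow skeletal fibres, Tnnc1 serves slow fibres and heart, and Tnnt3, Tnni2 and Tnnc2 serve fast fibres. Tnnt2 and Tnni3 are the heart forms, and Tnnt2 is also made in developing skeletal muscle. Mouse gastrocnemius is mostly a fast muscle with few slow fibres.

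Library totals ran from 42404254 to 59245029 counts. Levels are given as CPM, the count scaled to library size with TMM factors between libraries. Where genes are compared with each other they are given as RPKM, the CPM divided by the exon length in kilobases that the files list. Ckm, Acta1 and Mylpf, markers of skeletal muscle, were at 5810 CPM or more in every library. The libraries were parted into 2 kinds by transcripts of 9 kidney genes, at a sum of 1 CPM. Their summed level was 51.0 and 16.6 CPM in replicates 1 and 2 of 3 months, 5.55 in replicate 1 of 12 months, 4.17 in replicate 1 of 24 months and 3.68 in replicate 2 of 30 months. It was 0.724, 0.661 and 0.708 CPM in the other library of 12, 24 and 30 months. Of the 9 genes 7 were at 0 in at least 1 library, among them Lrp2 in 2 and Umod in 3. Each later age thus has 1 library of each kind and 3 months has none of the second kind, so a fit with the kind of library as a term is given beside the first fit where it moves a call.

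The troponin genes lie in pairs in the mouse genome (GRCm38). Tnnt1 (ENSMUSG00000064179, chromosome 7, 4504570 to 4516382) and Tnni3 (ENSMUSG00000035458, 4518305 to 4524229) stand 1922 bases apart on the minus strand. Tnni2 (ENSMUSG00000031097, chromosome 7, 142441808 to 142444410) and Tnnt3 (ENSMUSG00000061723, 142498836 to 142516009) are on the plus strand with Lsp1 between them. Tnni1 (ENSMUSG00000026418, chromosome 1, 135779434 to 135810989) and Tnnt2 (ENSMUSG00000026414, 135836354 to 135852260) are on the plus strand with Lad1 between them. The calcium-binding subunits stand alone, Tnnc1 (ENSMUSG00000091898) on chromosome 14 from 31208312 to 31211729 and Tnnc2 (ENSMUSG00000017300) on chromosome 2 from 164777161 to 164779967. A slow gene therefore lies beside a heart gene in 2 of the 3 pairs, and in these the partners differed widely in level.

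Promoter stretches of the 3 slow genes, whose levels moved together, are printed with that of fast Tnnc2 for comparison. Each is the 250 bases before the start that RefSeq gives on GRCm38.p6, 5′ to 3′ along the gene, and that start can differ from the gene bound in the files. RefSeq promoter entries were matched for 6 of the 8 genes, all but Tnnt3 and Tnni2. For Tnni1 and Tnnt2 there were 2 listed starts, and only the window of the first was read. The Tnni1 and Tnnt1 windows lie inside the gene bounds given above, as does most of the Tnnc2 window. The Tnnc1 window ends directly before its gene bound. Capitals mark matches, on either strand, to the E-box CANNTG of myogenic factors, the CACC box CCACCC, the M-CAT element CATTCC of TEAD factors and the TATA box TATAAA.
Tnnt1, chr7:4515976-4516225, minus strand: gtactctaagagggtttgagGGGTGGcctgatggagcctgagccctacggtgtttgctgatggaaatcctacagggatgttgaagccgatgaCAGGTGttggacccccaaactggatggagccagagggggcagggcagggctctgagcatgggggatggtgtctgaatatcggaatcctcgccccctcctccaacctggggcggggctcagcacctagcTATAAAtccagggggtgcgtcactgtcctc
Tnni1, chr1:135799171-135799420, plus strand: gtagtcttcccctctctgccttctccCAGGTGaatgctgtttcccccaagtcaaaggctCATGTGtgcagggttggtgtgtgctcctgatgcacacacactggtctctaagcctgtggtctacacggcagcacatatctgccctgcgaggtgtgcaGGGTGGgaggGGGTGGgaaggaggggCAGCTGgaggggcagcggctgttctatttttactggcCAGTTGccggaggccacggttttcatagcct
Tnnc1, chr14:31208062-31208311, plus strand: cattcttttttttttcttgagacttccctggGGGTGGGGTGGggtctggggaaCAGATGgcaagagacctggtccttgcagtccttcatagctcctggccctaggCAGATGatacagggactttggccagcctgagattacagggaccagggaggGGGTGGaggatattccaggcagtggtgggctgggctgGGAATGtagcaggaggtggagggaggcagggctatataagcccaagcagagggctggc
Tnnc2, chr2:164779735-164779984, minus strand: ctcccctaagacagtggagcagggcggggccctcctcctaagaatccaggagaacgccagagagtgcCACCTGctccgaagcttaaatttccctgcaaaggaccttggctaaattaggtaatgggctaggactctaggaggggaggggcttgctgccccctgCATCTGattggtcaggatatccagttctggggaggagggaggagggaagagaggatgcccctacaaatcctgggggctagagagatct

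The slow promoters held a CACC box each, 1 in Tnnt1, 2 in Tnni1 and 3 in Tnnc1, and the promoters of Tnnc2, Tnnt2 and Tnni3 held 0. Of 27025 RefSeq promoters of the same length, 27.7% held at least 1. All 6 troponin promoters held an E-box, as did 66% of all promoters. An M-CAT element was found in Tnnc1 at positions -58 to -53 and in Tnnt2 at -27 to -22, counted back from the start, and 12.6% of promoters hold it. The exact letters TATAAA were found in Tnnt1 alone of the 6, at -30 to -25, and 13% of promoters hold them. The Tnnc1 stretch holds the similar letters ctatataag near its start, which the exact search does not count. Neither the MEF2 motif nor the CArG motif of serum response factor was found in any of the 6, against 3.01% and 1.4% of all promoters. Matches of different motifs did not overlap, and the first 2 CACC boxes of Tnnc1 share the base at -214. These letters describe the windows and do not show that a factor binds there.

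The slow troponin genes were lowest at 3 months and highest at 30 months. Tnnt1, the slow troponin T gene, stood at 50.8 and 23.2 CPM in the 3 month libraries, 98.3 and 76.8 CPM in the 12 month libraries, 108 and 91.5 CPM in the 24 month libraries, and 145.5 and 212.8 CPM in the 30 month libraries (replicates 1 and 2). Both libraries of 3 months lay below the other 6 and both of 30 months above the other 6, while those of 12 and 24 months overlapped. The means were 37.0 ± 20 CPM, 87.5 ± 15 CPM, 99.8 ± 12 CPM and 179 ± 48 CPM from 3 to 30 months (SD, n = 2 at each age). Against 3 months, the log2 fold change was 1.24 (SE 0.35) at 12 months, 1.43 (SE 0.35) at 24 months and 2.28 (SE 0.36) at 30 months, the last a 4.85-fold difference. Adjusted p-values over all genes in edgeR's quasi-likelihood test were 0.726, 0.352 and 0.0663, so Tnnt1 did not pass 0.05 in any of these comparisons. It stood at rank 53 of 19571 genes by p for 30 against 3 months. With the kind of library as a term its log2 fold change was 2.45 (SE 0.38) and its adjusted p 0.0399. Without replicate 2 of 3 months, its lowest library, the value was 1.82 and the adjusted p 0.297. Without replicate 1 of 3 months it was 2.95 and the adjusted p 0.0402, in a fit where 0.049% of all genes passed. In RNA of whole muscle, a different number of slow fibres and a different amount of Tnnt1 RNA per fibre cannot be told apart.

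**Figure D1:**
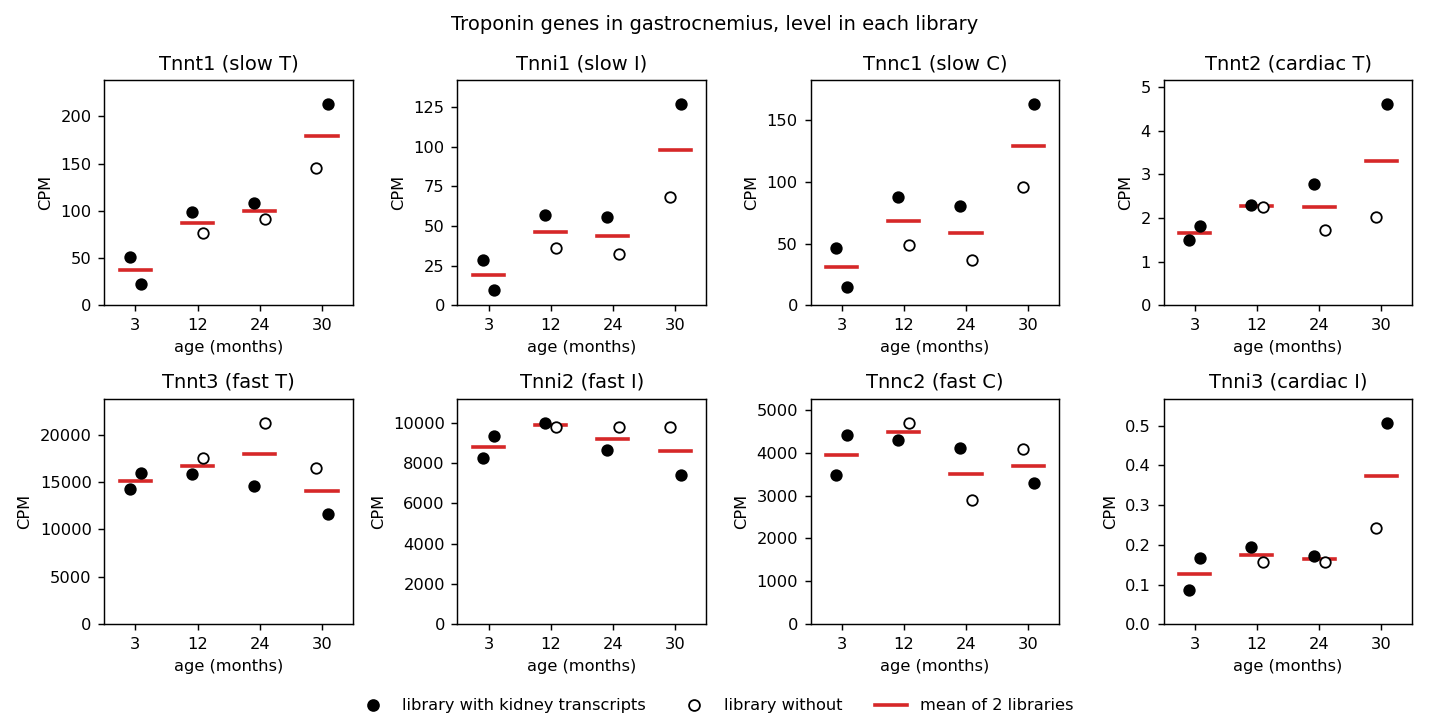
Level of each troponin gene in CPM (linear axes that start at 0) against age in months, with 1 point per library, filled for libraries with kidney transcripts and open for those without, and a red line for the mean of 2 libraries. The 3 slow genes have both 30 month libraries above the other 6, while the fast genes scatter without an order by age and the heart genes stay under 5 CPM.

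Tnni1, the slow troponin I gene, had 28.7 and 9.68 CPM in the 3 month libraries, 56.7 and 36.2 CPM in the 12 month libraries, 55.6 and 32.2 CPM in the 24 month libraries, and 68.5 and 126.9 CPM in the 30 month libraries. As for Tnnt1, both libraries of 3 months were below and both of 30 months above all others, and 12 and 24 months overlapped. Its log2 fold change against 3 months was 1.28 (SE 0.54) at 12 months, 1.20 (SE 0.54) at 24 months and 2.35 (SE 0.56) at 30 months. The adjusted p at 30 months was 0.252, or 0.163 with the kind of library as a term, and neither passed. The 30 month value was 3.33 when replicate 1 of 3 months was left out, and 1.77 when replicate 2 of that age was.

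Tnnc1, the troponin C gene that slow fibres share with heart, had 46.8 and 14.7 CPM in the 3 month libraries, 87.6 and 49.1 CPM in the 12 month libraries, 80.6 and 36.8 CPM in the 24 month libraries, and 95.7 and 162.7 CPM in the 30 month libraries. Both libraries of 30 months again exceeded the other 6, but replicate 2 of 24 months lay below replicate 1 of 3 months. The log2 fold change was 1.15 (SE 0.62) at 12 months, 0.93 (SE 0.61) at 24 months and 2.07 (SE 0.63) at 30 months against 3 months. At 30 months the adjusted p was 0.391, and 0.222 with the kind of library as a term. Leaving out replicate 1 of 3 months gave 3.13 at 30 months, and leaving out replicate 2 of 3 months gave 1.47. The SE of Tnnc1 was the largest of the 3 slow genes in each of these comparisons, and that of Tnnt1 the smallest.

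No troponin gene passed an adjusted p of 0.05 in any of the 6 comparisons of ages, in the test across the 4 ages or for a slope on age. The comparisons with 3 months share its 2 libraries. Over all genes, 0.148% passed for 30 against 3 months, 0.102% for 24 against 3 months and 0.0409% for 12 against 3 months. Between 30 and 12 months 0.00511% passed, and none for 24 against 12 or 30 against 24 months, while 0.0613% passed across the ages and 0.133% for the slope. At an unadjusted p under 0.05, 5 of the 8 troponin genes differed between 30 and 3 months, against 8.52% of all genes. They were Tnnt1, Tnni1, Tnnc1, Tnnt2 and Tnni3. Tnni3, with 11 and 27 reads at 30 months, would not have passed the low count filter without these libraries. It is therefore no support in any count that involves 30 months. In these 5 genes the 30 month libraries did not overlap those of 3 months and lay higher, as in 21.1% of all genes. The same count was 2 of 8 for 12 against 3 months and 1 of 8 for 24 against 3 months, against 5.5% and 7.56% of all genes. It was 0 of 8 for 24 against 12 months, 1 of 8 for 30 against 12 months and 2 of 8 for 30 against 24 months, where 3.07%, 5.21% and 3.1% of all genes did. Across the 4 ages it was 2 of 8, against 5.66% of all genes, and for the slope on age 5 of 8, against 9.83%. DESeq2 called 1 of the 8, Tnnt1, for 12, 24 and 30 against 3 months, where it called 0.332%, 0.718% and 1.14% of all genes with an adjusted p. It also called Tnnt1 across the ages and for the slope, where it called 1.18% and 1.52% of all genes. With limma-voom 0 of the 8 were called in any comparison, and 0.118% of all genes for 30 against 3 months. Without a low count filter edgeR called Tnnt1 for 30 against 3 months, where 1.12% of all genes passed. The fit with the kind of library called Tnnt1 and Tnnt2 at 30 against 3 months, where 2.13% of all genes passed. Tnnt1, Tnni1, Tnnc1 and Tnni3 had both 30 month libraries above the other 6, as had 4.28% of all genes. Tnnt1 and Tnni1 had both 3 month libraries below the other 6, as had 6.86%.

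For Tnnt1, Tnni1 and Tnnc1 both 30 month libraries lay above all younger libraries. A positive step to 30 months in each kind of library was therefore set in advance, and only its size is described here. With kidney transcripts, 30 minus 24 months was 0.98 for Tnnt1, 1.19 for Tnni1 and 1.01 for Tnnc1 on the log2 CPM scale. Without them it was 0.67 for Tnnt1, 1.09 for Tnni1 and 1.38 for Tnnc1. Against 12 months the differences were 1.11 and 0.92 for Tnnt1, 1.16 and 0.92 for Tnni1, and 0.89 and 0.96 for Tnnc1, with and without kidney transcripts. Each of these is a difference between single libraries and has no test of its own. The slow genes were also higher in the library with kidney transcripts than in its partner at all 3 later ages, and the part of that difference in the age comparisons was not tested. Within the libraries with kidney transcripts, the only ones to hold 3 months, 30 minus 3 months was 2.63 for Tnnt1, 2.93 for Tnni1 and 2.63 for Tnnc1.

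The fast troponin genes were among the abundant transcripts of the muscle and showed no order by age. Tnnt3, fast troponin T, had 14320 and 15930 CPM in the 3 month libraries, 15880 and 17550 CPM in the 12 month libraries, 14600 and 21250 CPM in the 24 month libraries, and 16470 and 11680 CPM in the 30 month libraries. The highest and the lowest library were thus replicate 2 of 24 months and replicate 2 of 30 months. Tnni2, fast troponin I, had 8234 and 9319 CPM in the 3 month libraries, 9984 and 9776 CPM in the 12 month libraries, 8650 and 9761 CPM in the 24 month libraries, and 9765 and 7406 CPM in the 30 month libraries. Tnnc2, fast troponin C, had 3489 and 4415 CPM in the 3 month libraries, 4287 and 4696 CPM in the 12 month libraries, 4113 and 2906 CPM in the 24 month libraries, and 4076 and 3291 CPM in the 30 month libraries. In all 3 genes the libraries of 30 and 3 months overlapped.

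For 30 against 3 months the log2 fold changes of the fast genes were near 0. The value was -0.10 for Tnnt3 (95% interval -0.79 to 0.58), -0.03 for Tnni2 (-0.61 to 0.54) and -0.10 for Tnnc2 (-0.70 to 0.50), with adjusted p-values of 0.953 or more. The sign of each turned positive without replicate 2 of 30 months, where the values were 0.13, 0.16 and 0.05. At 24 against 3 months Tnnt3 was at 0.25 (SE 0.30) and Tnnc2 at -0.17 (SE 0.27), with replicate 2 of 24 months holding the highest Tnnt3 and the lowest Tnnc2 of all libraries. Exons of Tnnc2 share 592 of their 800 bases with exons of Ube2c, a gene on the other strand, in the files' own exon lists. Ube2c was listed at 225 to 320 CPM. Whether reads were counted by strand is not stated in the sources used here. Reads of the shared bases may have been dropped or assigned to either gene, and the level of Tnnc2 is therefore uncertain.

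**Figure D2:**
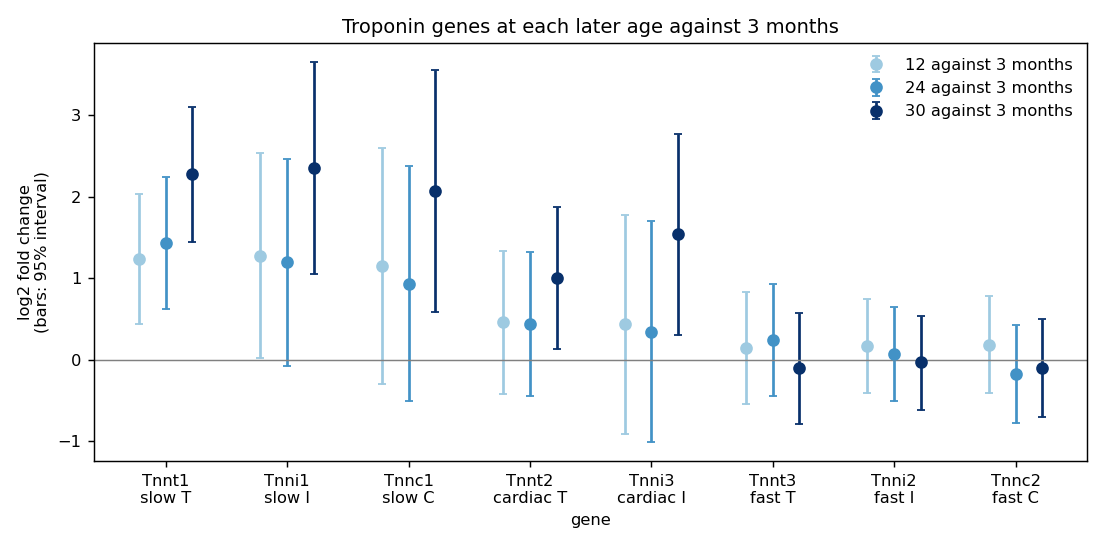
Log2 fold change of each troponin gene at 12, 24 and 30 months against 3 months from edgeR's quasi-likelihood fit, with bars for the 95% interval of the estimate. The points of the slow genes lie between 0.93 and 2.35, those of the fast genes between -0.17 and 0.25, and the heart genes between 0.35 and 1.54.

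The heart genes were present in traces. Tnnt2, cardiac troponin T, had 1.49 and 1.82 CPM in the 3 month libraries, 2.30 and 2.26 CPM in the 12 month libraries, 2.78 and 1.71 CPM in the 24 month libraries, and 2.02 and 4.61 CPM in the 30 month libraries. Replicate 2 of 30 months stood above all others, and its partner lay within the range of the younger ages. The log2 fold change for 30 against 3 months was 1.00 (SE 0.39, adjusted p = 0.514). With the kind of library as a term it was 1.24 (SE 0.28, adjusted p = 0.0483), and without replicate 2 of 30 months it was 0.29 in the first fit. Tnni3, cardiac troponin I, had 4 and 9 reads in the 3 month libraries, 10 and 8 in the 12 month libraries, 9 and 8 in the 24 month libraries, and 11 and 27 in the 30 month libraries. Here too replicate 2 of 30 months was the highest, while its partner was close to the highest younger library. Exact 95% Poisson intervals, which cover counting error only, were 5.49 to 19.7 and 17.8 to 39.3 reads at 30 months, against 1.09 to 10.2 and 4.12 to 17.1 reads at 3 months. Only the interval of replicate 2 of 30 months lies clear of both 3 month intervals. The log2 fold change was 1.54 (SE 0.55, adjusted p = 0.458), and 0.90 without replicate 2 of 30 months. In the files' exon lists Tnni3 shares 86 exon bases with Dnaaf3, itself at 0.117 to 0.549 CPM, so part of these few reads may belong to it.

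A list of 12 heart markers was summed for comparison with the heart genes. The sum was 16.2 and 15.7 CPM in the 3 month libraries, 18.5 and 13.7 CPM in the 12 month libraries, 20.3 and 16.9 CPM in the 24 month libraries, and 16.4 and 23.1 CPM in the 30 month libraries. It was highest in replicate 2 of 30 months, which also had the most Tnnt2 and Tnni3, and the part of heart transcripts in those values was not tested. Of defining heart genes, the atrial light chain gene Myl7 was at 0.0216 CPM or less, the natriuretic peptide gene Nppb at 0.019 or less, Gata4 at 0.0216 or less and Nkx2-5 at 0.0221 or less in every library. Myh6, the myosin heavy chain of heart, was at 1.04 to 4.15 CPM. Gja1, which many cell types express, had the highest level of the list at 7.75 to 12.2 CPM.

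Per exon length, fast troponin far exceeded slow troponin. Tnnt3 led in all 8 libraries with 7377 to 13430 RPKM, followed by Tnni2 with 4947 to 6670 RPKM and Tnnc2 with 3632 to 5870 RPKM. The ranges of Tnni2 and Tnnc2 overlap, but Tnni2 was the higher in every library as counted. Because Tnnc2 shares exon bases with Ube2c, its count is uncertain, and so is its place among the fast genes. Tnnc1 came next with 14.1 to 156.3 RPKM, then Tnnt1 with 10.5 to 96.6 RPKM and Tnni1 with 2.69 to 35.3 RPKM. These ranges overlap too: Tnnc1 was above Tnnt1 in 7 of 8 libraries, and Tnnt1 above Tnni1 in 8. Tnnt2 with 0.192 to 0.594 RPKM and Tnni3 with 0.0419 to 0.246 RPKM closed the order. Exon lengths of 7752 bases for Tnnt2 and 3600 for Tnni1 join every exon listed, which lowers their level per length where parts go unused.

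**Figure D3:**
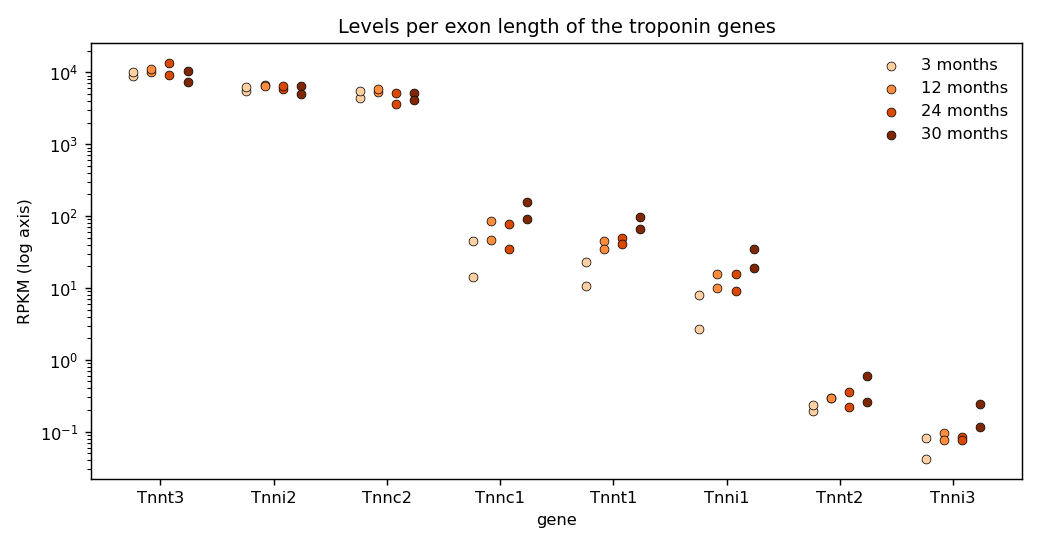
Level of each troponin gene in RPKM (log axis), genes in order of their mean, with 1 point per library and darker points for older ages. Fast genes lie between 3632 and 13430 RPKM, slow genes between 2.69 and 156.3 RPKM and heart genes below 1 RPKM.

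The slow to fast ratio within a library needs no scaling between libraries, and it was higher at 30 months for all 3 subunits. For troponin T there were 2.55 and 1.05 slow per 1000 fast transcripts, per exon length, at 3 months. There were 4.44 and 3.14 in the 12 month libraries, 5.31 and 3.09 in the 24 month libraries, and 6.34 and 13.1 in the 30 month libraries. For troponin I the ratio was 1.45 and 0.432 per 1000 in the 3 month libraries, 2.36 and 1.54 in the 12 month libraries, 2.67 and 1.37 in the 24 month libraries, and 2.92 and 7.13 in the 30 month libraries. Slow transcripts thus stayed a small part of the pool at every age. For troponin C it was 10.3 and 2.56 per 1000 in the 3 month libraries, 15.7 and 8.03 in the 12 month libraries, 15.1 and 9.73 in the 24 month libraries, and 18.0 and 38.0 in the 30 month libraries. Because Tnnc1 is divided by Tnnc2, whose count is uncertain, the absolute level of that ratio is uncertain too. In all 3 subunits both ratios at 30 months lay above the 6 others, and both ratios at 3 months lay below the 6 others for troponin T alone.

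Between 30 and 3 months the log2 ratio differed by 2.48 for troponin T, 2.53 for troponin I and 2.35 for troponin C, or 5.58-fold, 5.76-fold and 5.1-fold. At 12 months the difference from 3 months was 1.20, 1.27 and 1.13, and at 24 months 1.31, 1.27 and 1.24. An exact permutation test over all 2520 assignments of the libraries to the 4 ages gave p = 0.0286 for troponin T, 0.124 for troponin I and 0.181 for troponin C, where 0.00952 is the smallest value it can give. Adjusted over these 3 ratios by Benjamini-Hochberg, the exact permutation p-values were 0.0857, 0.181 and 0.181, and none passed. For a trend with age in months, Pearson's r of the log2 ratio over 8 libraries was 0.818 for troponin T, 0.752 for troponin I and 0.737 for troponin C. Exact two-sided permutation p-values for r were 0.00754, 0.0155 and 0.021, each 0.021 when adjusted over the 3. Spearman's rho was 0.878, 0.781 and 0.732, with exact permutation p-values of 0.0103, 0.0349 and 0.0548, or 0.031, 0.0524 and 0.0548 adjusted. Without the 2 libraries of 3 months, the farthest from the median age, r was 0.663, 0.58 and 0.622 over 6 libraries and the exact permutation p-values were 0.156, 0.244 and 0.2. Without the 3 month libraries r thus stayed positive in all 3 subunits, and the test over 6 libraries did not pass.

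**Figure D4:**
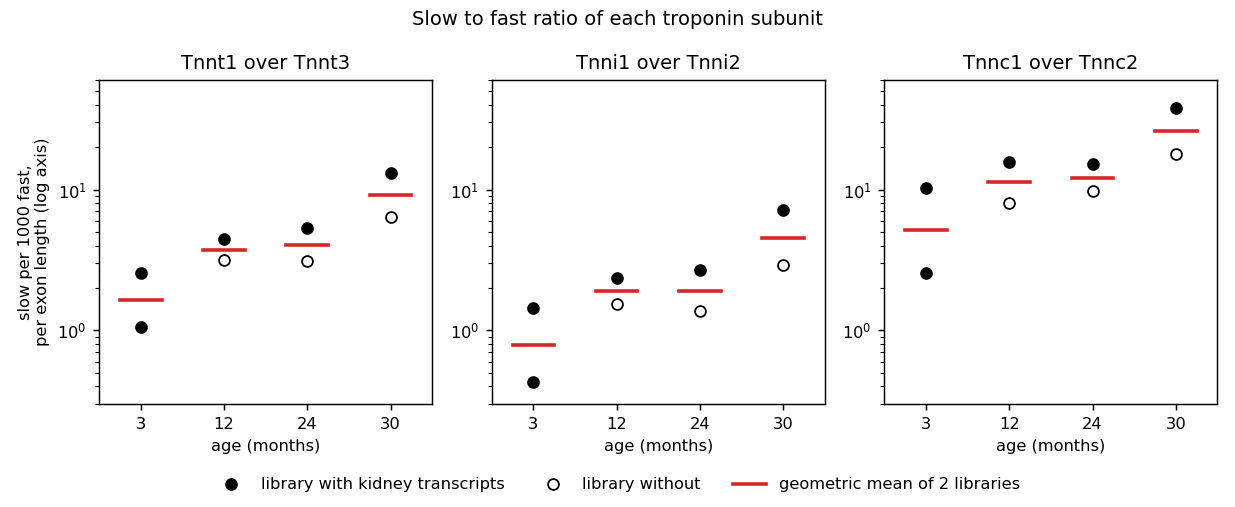
Slow transcripts per 1000 fast transcripts, per exon length (log axis), for troponin T, I and C against age in months, with 1 point per library, filled with and open without kidney transcripts, and a red line for the geometric mean of 2 libraries. Troponin T reaches 6.34 and 13.1 per 1000 in the 30 month libraries, against 2.55 and 1.05 per 1000 in the 3 month libraries, and the other subunits have the same order at these ages.

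The slow subunits kept near each other across libraries. Tnnc1 over Tnni1, both per exon length, ran from 3.95 to 5.64, while Tnnc1 itself spanned 14.1 to 156.3 RPKM. Tnni1 over Tnnt1 ran from 0.215 to 0.365 and Tnnc1 over Tnnt1 from 0.851 to 1.95. The lowest value of each of these 3 ratios was in replicate 2 of 24 months. Among the fast genes, Tnni2 over Tnnt3 ran from 0.486 to 0.671 and Tnnc2 over Tnnt3 from 0.271 to 0.558, again lowest in replicate 2 of 24 months. Across the 8 libraries, Pearson's r of log2 CPM was 0.989 between Tnni1 and Tnnc1, 0.975 between Tnnt1 and Tnni1 and 0.935 between Tnnt1 and Tnnc1. It was 0.842 between Tnnt3 and Tnni2, but -0.033 between Tnnt3 and Tnnc2 and 0.412 between Tnni2 and Tnnc2. Between slow and fast partners it was -0.273 for troponin T, -0.365 for troponin I and -0.164 for troponin C. These values describe 8 libraries that share an age order and a split by kidney transcripts.

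The genes most like each slow troponin gene over the 8 libraries, among 9676 genes, included other slow fibre genes. Tnnt1 was followed most closely by Arpp19 (r = 0.994), Myh7 (0.986), Tpm3 (0.978), Hmgn2 (0.961) and Cyfip2 (0.958). Myh7 encodes the myosin heavy chain of slow fibres and Tpm3 their tropomyosin, while Arpp19 encodes an inhibitor of protein phosphatase 2A. Tnni1 was nearest to Tpm3 (0.991), Arpp19 (0.97), Myh7b (0.958), Myh7 (0.954) and Mfsd12 (0.932). Tnnc1 was nearest to Tpm3 (0.977), Myl3 (0.949), Myh7b (0.939), Ccnd1 (0.936) and Arpp19 (0.929), with Myl3 a light chain of slow myosin. Tpm3 and Arpp19 are in all 3 sets, though Arpp19 had a narrow range, 65.1 and 69.5 CPM in the 30 month libraries against 55.1 and 47.6 CPM in the 3 month libraries. The fast genes had other company. Tnnt3 was nearest to Pdlim7 (0.995), Fsd2 (0.987), Ssr3 (0.986), Arel1 (0.984) and Oxsr1 (0.984). Tnni2 was nearest to Bcorl1 (0.99), Rtn2 (0.957), Rnf113a2 (0.953), the creatine kinase gene Ckm (0.953) and Zfp9 (0.95). Tnnc2 was nearest to Cxxc1 (0.975), Slc48a1 (0.961), Itpk1 (0.952), Morf4l1 (0.947) and Cdc34 (0.945). No gene stood in the sets of both a slow and a fast troponin gene. That was set in advance, since every slow troponin gene had a negative r with every fast one.

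The rest of the slow fibre list lay in the same direction as slow troponin. Of its 12 genes other than troponins, 11 had a positive log2 fold change between 30 and 3 months, and their median was 0.91, where 51.4% of all genes had a positive one and the median over all was 0.0093. After adjustment over all genes 1 of the 12, Myh7, passed as higher and 0 as lower, against 0.123% and 0.0255% of all genes. With the kind of library as a term 6 passed as higher, where 1.48% of all genes did. Tpm3, the tropomyosin of slow fibres, was at 184 and 263 CPM in the 30 month libraries, against 85.9 and 39.1 CPM in the 3 month libraries, higher by 1.84 on the log2 scale (SE 0.40, adjusted p = 0.197). Myh7, Atp2a2 and Myh7b had 2.77, 1.47 and 1.45. Against 3 months the median of the list stood at 0.38 for both the 12 and the 24 month libraries.

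Of 12 fast fibre genes other than troponins, 0 passed in either direction and 3 had a positive log2 fold change between 30 and 3 months, with a median of -0.16. Over all genes 0.148% passed. At an unadjusted p under 0.05 there were also 0 of the 12, against 8.52% of all genes. In 12 genes, counts of 0 are near these shares and say little about fast fibre genes. Parvalbumin, the calcium buffer of fast fibres encoded by Pvalb, was at 6210 and 3250 CPM in the 30 month libraries, against 6490 and 7190 CPM in the 3 month libraries, a log2 fold change of -0.53 (SE 0.34). Myoz1, a Z-disc gene of fast fibres, had -0.53 (SE 0.24), and the myosins Myh2 and Myh1 had 0.60 and 0.53. With the kind of library as a term the median was -0.52 and again 0 passed, where 2.13% of all genes did. Myh2 and Myh1 therefore lay on the other side of 0 from most of the list.

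Thin filament partners of troponin had a median of 0.07 over 20 genes, 12 of them positive. Of these 0 passed in either direction, where 0.148% of all genes did for 30 against 3 months. Their lowest p-values after Tpm3 belonged to Lmod2, a nucleator of actin filaments, with a log2 fold change of 0.94 (SE 0.25), to Actn2 of the Z-disc with 0.88 (SE 0.27) and to Xirp1 with 0.57 (SE 0.22). Actn2 and Xirp1 passed as higher with the library term, 2 of 20 against 1.48% of all genes in that fit. Among 27 regulators of fibre type genes the median was 0.08, 15 had a positive value and 0 passed, against the same 0.148%. Ppargc1b, a coactivator of oxidative metabolism, had 22.3 and 17.1 CPM in the 30 month libraries, against 11.2 and 10.9 CPM in the 3 month libraries, higher by 0.83 on the log2 scale (SE 0.19, adjusted p = 0.207). Vgll2, a cofactor of TEAD factors, had 0.62 (SE 0.20), Hdac4, a histone deacetylase that represses MEF2, 0.54 (SE 0.20), and Eya1, a transcriptional cofactor, -0.36 (SE 0.14). In the fit with the library term 3 of the 27, Ppargc1b, Vgll2 and Prox1, passed as higher, against the same 1.48% of all genes. A list drawn up for developmental sarcomere genes had 7 of 8 positive and a median of 0.69, and 0 passed, against the same 0.148%. The list also holds genes from outside the sarcomere, such as Ncam1. Myh3, embryonic myosin, was at 19.8 and 56.7 CPM in the 30 month libraries, against 9.23 and 11.5 CPM in the 3 month libraries. Myh8, the perinatal myosin gene, had a log2 fold change of 0.75 (SE 0.24), Myl4 1.08 (SE 0.34) and Ncam1 0.63 (SE 0.21). Once the library term was added 2 of the 8, Myl4 and Ncam1, passed as higher, where 1.48% of all genes did.

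Genes that overlap the troponin genes or lie next to them were read as well. Of 16 such genes 13 were tested, and none passed between 30 and 3 months, with adjusted p-values of 0.614 or more and log2 fold changes of -0.97 for Syt8 to 0.80 for Dnaaf3. Beside the slow genes, Ppp1r12c, which lies 2889 bases from Tnnt1, stood at 0.13 (SE 0.15), and Phlda3, on the other side of Tnni1 from Tnnt2, had 0.19 (SE 0.20). Nisch, which spans Tnnc1 on the other strand with no shared exon base, had 0.18 (SE 0.16). Lad1, between Tnni1 and Tnnt2, was at 0.195 CPM or less and was not tested. Near the fast genes, Lsp1 had 0.14 (SE 0.17), and Prr33, which overlaps Tnnt3 with no shared exon base, had 0.18 (SE 0.32).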

How the data were processed

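Frozen gastrocnemius RNA, extracted with Trizol, went into sequencing libraries built with NEBNext Ultra reagents, according to the labels. Deposited are raw counts per Ensembl gene with the exon length of each gene, per the file headers. Trimmomatic 0.36, STAR 2.5.2b, featureCounts and Subread 1.5.2 appear in the submitters' processing notes, which give no roles. Neither annotation release nor strand setting is given in those sources. Symbols and neighbours came from GENCODE M21 (GRCm38), where the bounds of all 8 genes equal those in the files.

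Counts were fitted in R 4.3.3 with edgeR 4.0.16 (filterByExpr, TMM, robust quasi-likelihood with 4 residual degrees of freedom, Benjamini-Hochberg over 19571 genes), and the procedure was tested on simulated data. SE is the absolute log2 fold change over the root of its F statistic. Log2 CPM for likeness had a prior count of 2, and genes compared had an average log2 CPM of at least 2. Up to 4 genes per list were named, by lowest p for 30 against 3 months. Libraries were parted at a kidney sum of 1 CPM. Ratios were tested in Python 3.11.15. Alternatives used RLE, library totals, other filters, DESeq2 1.42.0, limma 3.58.1, a replicate block, the kind of library, and each library left out. The members, lists and tests were chosen with earlier results of these data known.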

Additional observations from a re-analysis of the deposited data

How the results depend on the processing

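No troponin gene was called in any comparison in the first fit, where 0.148% of all genes or fewer passed in each. The absence of calls held in 126 of 134 pairs of an alternative setting and a comparison. These pairs come from 17 settings and include comparisons where no gene at all passed in the first fit. With so few genes passing, the absence of calls is near the share over all genes and says little about troponin in particular. DESeq2 called 1, Tnnt1, in each comparison with 3 months, across the ages and for the slope. For 30 against 3 months 1 was called with no low count filter and 2 with the kind of library as a term, where 1.12% and 2.13% of all genes were called, and 0 to 1 when libraries were left out in turn, the 1 being Tnnt1 without replicate 1 of 3 months, where 0.049% of all genes were called. The log2 fold change of Tnnt1 ran from 1.82 to 2.95 when a library was left out, with an adjusted p of 4.88e-10 to 0.297 over 17 alternatives. The signs of the slow and heart genes did not change in any alternative. Those of fast genes turned in 2 fits, for all 3 genes without replicate 2 of 30 months and for Tnni2 and Tnnc2 without replicate 2 of 3 months, with ranges of -0.37 to 0.13 for Tnnt3, -0.25 to 0.16 for Tnni2 and -0.27 to 0.08 for Tnnc2. The difference in log2 ratio between 30 and 3 months ran from 1.84 to 3.12 for troponin T, 1.65 to 3.4 for troponin I and 1.35 to 3.35 for troponin C with a library left out. With a library left out, the exact permutation p-values of all 3 subunits were under 0.05 only without replicate 1 of 3 months, and that of troponin T reached 0.2 without replicate 2 of 30 months. A replicate block gave 2.48 for troponin T with an exact permutation p of 0.0833, as it did for troponin I and C. With a block, ages are permuted only within each replicate. Fewer assignments exist, and the smallest possible p is higher than in the first test. The kind of library gave 3 for troponin I with an exact permutation p of 0.0333, and Pearson's r with age, 0.752 for troponin I and 0.737 for troponin C, had exact permutation p-values under 0.05. The cause of these changes was not tested. Differences between replicates 1 and 2 had no common direction across ages. Across genes they correlated at 0.262 between 12 and 24 months, and at -0.357 and -0.302 between these ages and 30 months. With 3 months the values were -0.211 to 0.098. The library with kidney transcripts was replicate 1 at 12 and 24 months and replicate 2 at 30 months, and the part of that split was not tested. The replicate block changed no other call. Depth limits Tnni3, with 4 to 27 reads per library.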
